A study of Mus musculus with 18 samples.

Results

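The genes examined were those for the receptors of glutamate and GABA, followed through the differentiation of neural stem cells (NSCs) into astrocytes in 3 mouse cell lines. They were taken by symbol from the deposited table, as the protein-coding genes of the AMPA (Gria), NMDA (Grin), kainate (Grik) and delta (Grid) glutamate receptor subunits, the metabotropic glutamate receptors (Grm), the GABA-A receptor subunits (Gabra, Gabrb, Gabrd, Gabre, Gabrg, Gabrp, Gabrq, Gabrr) and the GABA-B receptor (Gabbr). The genes described were 39 of the 27997 in the table, 23 for glutamate and 16 for GABA receptors. RNA was sequenced from 18 libraries in 6 groups of 3. A tdTomato line (labelled DNGR-1 +/- Tom+/-) and an EYFP line (DNGR-1 +/- EYFP+/-) came from fluorescent cells sorted from spinal cord neurospheres of mice in which Cre under control of the Clec9a (DNGR-1) locus switches on the reporter, and both are called traced. A hippocampal line (DNGR-1+/+) came from mice with Glast-Cre, a floxed Huwe1 allele and the same EYFP reporter. Each line was sampled as NSCs after 4 days in EGF, bFGF and laminin and as astrocytes after 6 days in BMP4 at 20 ng/ml. The 3 replicates of a group were passages of 1 line, so p-values measure the spread between passages, and origin cannot be told apart from line or genotype in any comparison with the single hippocampal line.

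Glutamate acts on ion channels built from subunits of the AMPA, NMDA and kainate families and on G-protein-coupled metabotropic receptors. GABA opens the chloride channel of the GABA-A receptor, usually assembled from alpha, beta and gamma subunits, and acts through the GABA-B receptor, an obligate pair of GABBR1 and GABBR2. Astrocytes and their progenitors carry many of these receptors, and astrocytes clear both transmitters from the extracellular space.

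All values are the deposited log2 values, which are relative to library size and on which a difference of 1 is 2-fold. They resemble the output of a regularized log, which draws weakly expressed genes together across libraries. The transform is not named in the sources used here, and whether the differences of weak genes are understated was not tested. The table holds no counts and the exact depth of each library is unknown, although the labels give at least 25 M reads of 76 bp per library. A gene was tested if its value reached 3.32, or 10 when unlogged, in 3 or more of the 18 libraries, which held for 15448 genes and for 28 of the 39 members. The other 11 members reached that level in 0 libraries, and 8 of the 28 tested members reached it in some libraries but not in all 18, so that the tested members are not all members. A difference is called when its adjusted p is under 0.05 in a limma fit of the 6 group means over all 18 libraries, and errors of differences are standard errors (SE) from that fit.

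The labelled cell types were set against their markers. The linear values of 8 astrocyte markers summed to 15.06 to 16.23 on the log2 scale in NSC libraries and to 17.24 to 17.98 in astrocyte libraries, and all 8 were at the filter level in every group. The sum over 8 oligodendrocyte-lineage markers was 15.79 to 16.09 in NSCs and 13.66 to 15.07 in astrocytes. Of these, 5 or 6 were at the filter level in each group, and Sox10 and Mog were below it in every group. Snap25 and Stmn2, which mark neurons, were below the filter level in every group. The sum over 8 neuronal markers was 13.98 to 14.64, and 5 or 6 of the 8 were at the filter level in each group. The sum over 3 of 4 listed ependymal markers went from between 9.45 and 10.50 in NSC libraries to between 11.01 and 12.32 in astrocyte libraries. That over 4 mural markers was 5.33 to 7.65 in NSC and 7.43 to 8.14 in astrocyte libraries, ranges that overlap. Of the mural markers 1 to 3 were at the filter level in each group, and Pdgfrb was below it in every group. The microglial sum over 5 of 6 listed markers was 3.07 to 6.42. Of these, 0 or 1 were at the filter level in each group, and Aif1, Csf1r and Ptprc were below it throughout. The endothelial sum over 3 of 4 listed markers was 2.40 to 4.10. Of these, 0 or 1 were at the filter level in each group, and Pecam1 and Cdh5 were below it throughout. The part of these cell type markers in the receptor results below was not tested. The sum over 6 NSC markers, all at the filter level in every group, went from between 15.62 and 15.69 to between 14.63 and 14.68 in the tdTomato line, from between 15.70 and 15.80 to between 14.86 and 15.01 in the EYFP line, and from between 15.82 and 15.90 to between 14.99 and 15.19 in the hippocampal line. Among these markers Nes fell by 3.18 in the tdTomato and by 3.05 in the EYFP line, but stood at 13.86 in hippocampal NSCs and 13.64 in hippocampal astrocytes.

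Most of the receptor genes changed when the NSCs were turned into astrocytes. Grm5, Grm3 and Grin1 fell in all 3 lines while Gabra5, Gabrb1, Gabbr2 and Gria1 rose in all 3, each by at least 1 on the log2 scale. In the tdTomato line 27 of the 28 tested members were called, 17 higher and 10 lower in astrocytes. In the EYFP line 25 were called, 15 higher and 10 lower, and in the hippocampal line 24, of which 12 were higher and 12 lower. Among all genes tested, 78.4%, 75.2% and 76.3% were called in these lines, beside 96.4%, 89.3% and 85.7% of the tested members. By direction the background was 39.9% higher and 38.5% lower in the tdTomato line, 38.2% and 37% in the EYFP line, and 39% and 37.3% in the hippocampal line. Quantile normalization turned the split of all genes in the hippocampal line, from 6027 higher and 5759 lower to 5440 and 6386. Changes of at least 1 were called for 20, 17 and 16 of the 28 members, beside 26.8%, 24.5% and 25.6% of all genes. The median change of the tested members was 0.65, 0.31 and 0.05, and that of all genes 0.01, 0.01 and 0.02.

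The directions were counted for glutamate and GABA receptor genes apart, and whether their splits differ was not tested. Of the 9 tested GABA receptor genes, 7 rose and 1 fell in the tdTomato line, 7 rose and 2 fell in the EYFP line, and 5 rose and 2 fell in the hippocampal line. Of the 19 tested glutamate receptor genes, 10 rose and 9 fell, 8 rose and 8 fell, and 7 rose and 10 fell. The same direction was called in all 3 lines for 21 members. The 12 that rose were Gria1, Grin3a, Grik2, Grik3, Grik4, Grik5, Grm4, Gabra4, Gabra5, Gabrb1, Gabbr1 and Gabbr2, where 28.1% of all genes tested rose in all lines. The 9 that fell were Gria2, Gria3, Grin1, Grin2a, Grin2c, Grik1, Grm3, Grm5 and Gabrg1, where 27.8% of all genes fell in all lines. Gria4 and Grin2b were called in opposite directions in different lines.

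**Figure D1:**
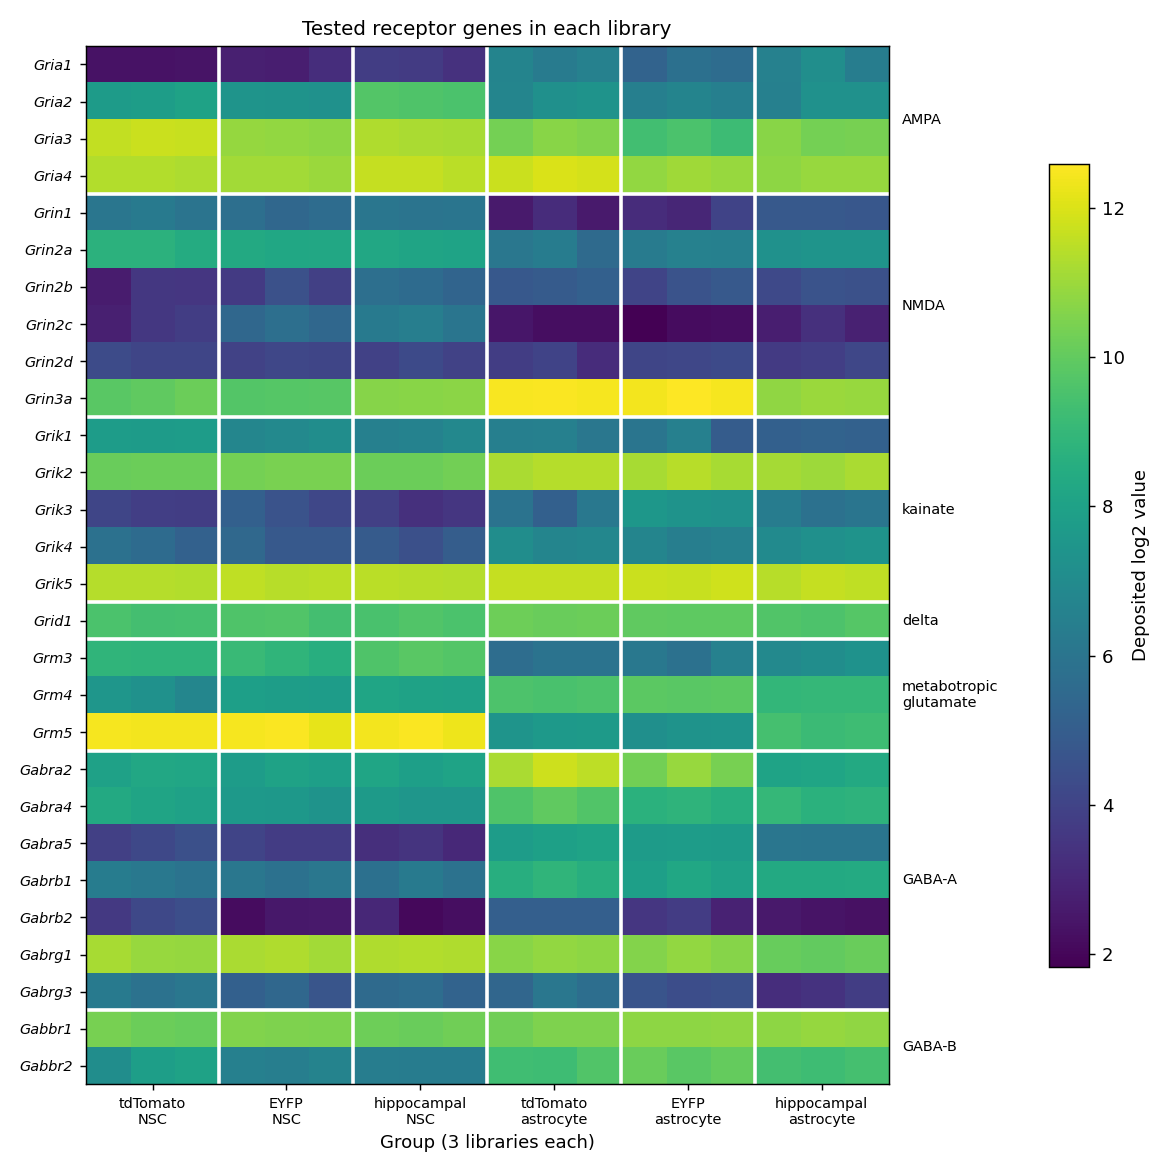
Deposited log2 values of the 28 tested receptor genes (rows, by family) in the 18 libraries (columns, 3 per group), with colour from 1.83 to 12.59. Grm5 is at 12.21 to 12.52 in the 9 NSC libraries and at 7.18 to 9.41 in the 9 astrocyte libraries, and Grin3a is at 12.40 to 12.59 in the traced astrocytes.

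**Figure D2:**
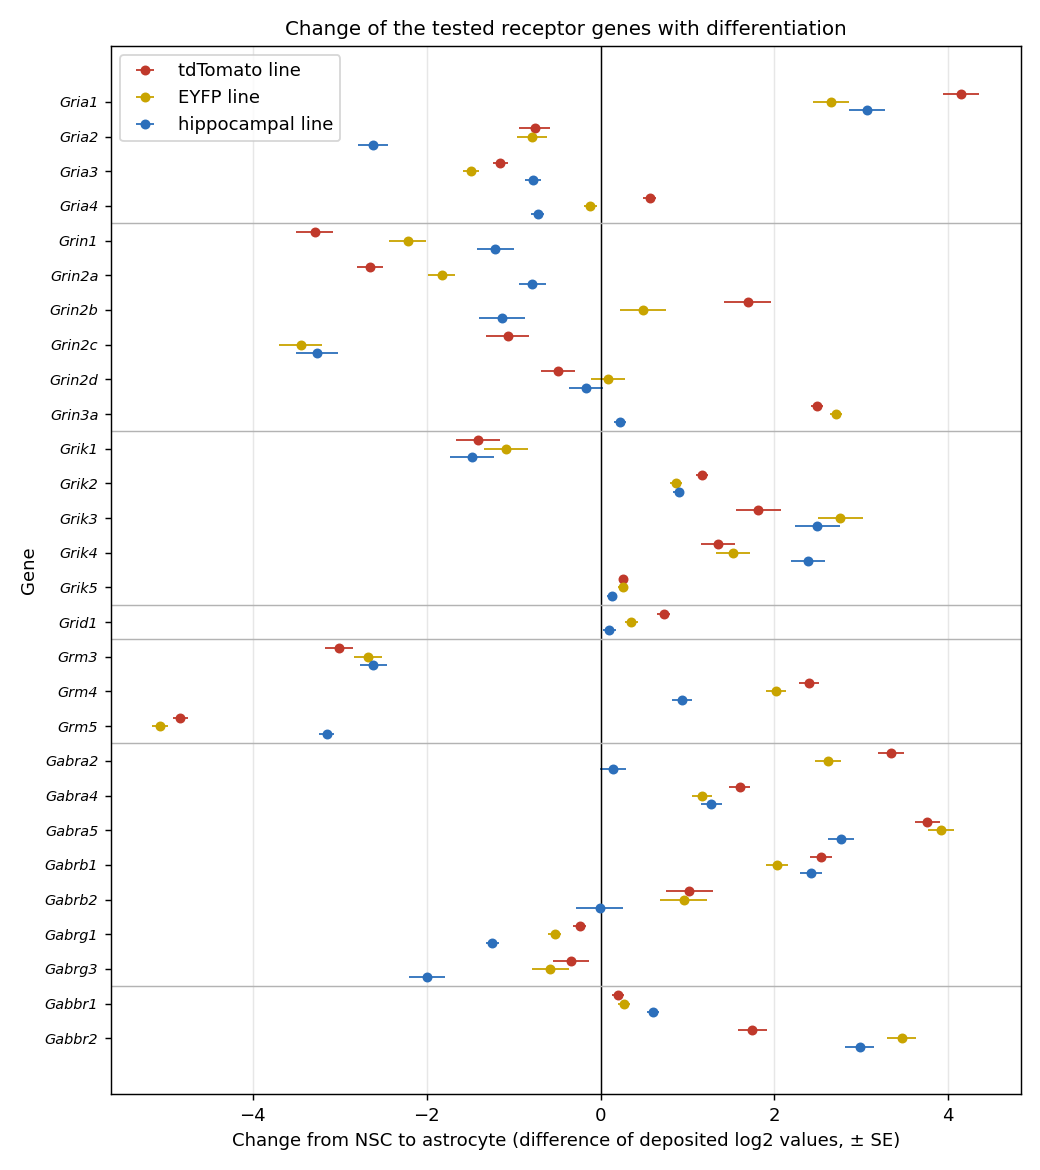
Change from NSC to astrocyte (x axis, difference of deposited log2 values, bars are SE) of the 28 tested receptor genes (y axis) in the tdTomato (red), EYFP (yellow) and hippocampal (blue) line. Grm5 lies furthest to the left in every line except the hippocampal, where Grin2c (-3.26) lies beside it (-3.15), and both traced lines lie to the right of the hippocampal line for Gabra2 and Grin3a.

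The promoter windows of 6 of the 9 members that rose or fell by at least 1 in all 3 lines and had a window are shown, because each of these genes kept its direction in every line and BMP4, the differentiation factor, signals through Smad proteins. The windows are those of RefSeq on GRCm38.p6, from 250 bases before to 50 bases after the annotated start, written 5′ to 3′ on the strand of the gene, and 29 of the 39 members had one or more (36 windows). The 10 without a window were Grm5, Gria1, Grin2b, Gabrd, Grm4, Grid1, Grin2a, Gria3, Grik1 and Grin3a. Capitals mark matches to GGCGCC, the GC-rich element that the Smads of the BMP pathway can bind. Gabra4, Gabrb1, Gabra5 and Gabbr2 rose, and Grm3 and Grin1 fell.
Gabra4, chr5:71658259-71658558, - strand: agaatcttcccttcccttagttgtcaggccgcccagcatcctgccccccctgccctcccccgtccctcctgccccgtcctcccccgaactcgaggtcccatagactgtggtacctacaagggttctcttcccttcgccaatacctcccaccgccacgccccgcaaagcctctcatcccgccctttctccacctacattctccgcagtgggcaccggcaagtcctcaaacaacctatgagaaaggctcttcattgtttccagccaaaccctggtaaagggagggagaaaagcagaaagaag
Gabrb1, chr5:71657671-71657970, + strand: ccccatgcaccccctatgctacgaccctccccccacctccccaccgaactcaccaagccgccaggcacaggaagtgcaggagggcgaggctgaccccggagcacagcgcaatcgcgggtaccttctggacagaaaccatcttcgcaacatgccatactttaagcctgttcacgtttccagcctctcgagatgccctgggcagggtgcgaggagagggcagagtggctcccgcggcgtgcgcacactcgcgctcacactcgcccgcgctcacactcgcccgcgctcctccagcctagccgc
Gabra5, chr7:57510010-57510309, - strand: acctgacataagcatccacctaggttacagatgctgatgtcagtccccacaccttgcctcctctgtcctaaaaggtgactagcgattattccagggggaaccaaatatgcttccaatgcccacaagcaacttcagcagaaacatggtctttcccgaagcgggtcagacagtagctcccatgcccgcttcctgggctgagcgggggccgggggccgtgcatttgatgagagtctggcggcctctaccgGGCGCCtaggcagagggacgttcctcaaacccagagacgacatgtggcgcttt
Gabbr2, chr4:46991665-46991964, - strand: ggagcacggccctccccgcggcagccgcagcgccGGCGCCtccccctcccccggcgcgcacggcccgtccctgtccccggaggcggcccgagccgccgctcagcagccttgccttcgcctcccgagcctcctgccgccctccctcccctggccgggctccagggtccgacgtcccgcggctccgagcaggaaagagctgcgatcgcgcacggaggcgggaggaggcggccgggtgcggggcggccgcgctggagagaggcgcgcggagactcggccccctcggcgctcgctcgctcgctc
Grm3, chr5:9725303-9725602, - strand: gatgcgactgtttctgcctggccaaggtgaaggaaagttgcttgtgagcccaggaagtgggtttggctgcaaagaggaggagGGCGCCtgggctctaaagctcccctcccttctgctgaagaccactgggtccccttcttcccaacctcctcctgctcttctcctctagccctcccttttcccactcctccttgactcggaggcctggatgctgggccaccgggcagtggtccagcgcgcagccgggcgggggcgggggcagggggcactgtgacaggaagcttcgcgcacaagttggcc
Grin1, chr2:25319138-25319437, - strand: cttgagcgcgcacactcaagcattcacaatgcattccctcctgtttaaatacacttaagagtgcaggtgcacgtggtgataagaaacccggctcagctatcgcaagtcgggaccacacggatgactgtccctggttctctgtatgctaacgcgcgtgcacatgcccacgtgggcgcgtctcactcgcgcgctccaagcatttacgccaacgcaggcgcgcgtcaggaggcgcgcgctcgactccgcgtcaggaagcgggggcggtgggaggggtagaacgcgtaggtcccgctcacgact
GGCGCC, which reads the same on both strands, was found in 8 of the 36 member windows (Gabbr1, Gabbr2, Gabra5, Grik2, Grik3, Grik4, Grm3 and Grm8) and in 11.87% of all 32851 windows. Member windows were richer in G and C, with a median GC content of 60.8% against 52.7% for all windows. Among the members shown it occurred in Gabra5 and Gabbr2, which rose, and in Grm3, which fell, and it was absent from the windows of Gabra4, Gabrb1 and Grin1. Of the 3 not shown, Grik3 and Grik4, which rose, had 3 and 2 matches, and Grin2c, which fell, had 0. The Smad palindrome GTCTAGAC was in 0 member windows and in 0.21% of all windows. The STAT motif TTCNNNGAA was in 2 member windows, of Gabrg1 and of a further start of Gabrb1, and in 8.3% of all windows. TTCAGCACC, the left part of the RE1 element bound by REST, was in 1 member window, that of Grm2, and in 0.37% of all windows. Both strands were searched, the motifs were chosen with the values known, and a match describes the letters only.

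The metabotropic glutamate receptors held the largest fall and changed in opposite directions within the family. Grm5 encodes the Gq-coupled receptor mGlu5, which raises intracellular calcium, and lies at chr7:87584168-88134907 (GRCm38, + strand). Its values were 12.45, 12.39 and 12.39 in tdTomato, 12.44, 12.51 and 12.21 in EYFP and 12.42, 12.52 and 12.32 in hippocampal NSCs. After differentiation Grm5 stood at 7.40, 7.66 and 7.68 in tdTomato, 7.18, 7.38 and 7.42 in EYFP and 9.41, 9.16 and 9.24 in hippocampal astrocytes. Every astrocyte library lay below every NSC library, and the hippocampal astrocytes lay above the traced astrocytes. The change of Grm5 was -4.83 ± 0.09 (tdTomato), -5.06 ± 0.09 (EYFP) and -3.15 ± 0.09 (hippocampal) in the 3 lines (adjusted p = 9.02e-18, 4.74e-18 and 1.68e-15, limma). NSCs of the traced and hippocampal lines differed in Grm5 by -0.02 ± 0.08 (adjusted p = 0.872), whereas traced minus hippocampal astrocytes was -1.82 ± 0.08 (adjusted p = 1.68e-12).

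Grm3, which encodes the Gi-coupled receptor mGlu3, also fell in every line. Grm3 (chr5:9485541-9725170, - strand) was at 8.87, 8.82 and 8.82 in tdTomato, 9.13, 8.88 and 8.58 in EYFP and 9.64, 9.84 and 9.70 in hippocampal NSCs. In astrocytes Grm3 was at 5.66, 5.93 and 5.91 in tdTomato, 6.13, 5.85 and 6.58 in EYFP and 6.91, 7.10 and 7.33 in hippocampal astrocytes. The NSC libraries, the highest of which were hippocampal, did not overlap with the astrocyte libraries. The changes were -3.01 ± 0.16, -2.68 ± 0.16 and -2.61 ± 0.16 in the tdTomato, EYFP and hippocampal lines, and they differed between traced and hippocampal lines by -0.23 ± 0.19 (adjusted p = 0.355), with the hippocampal line higher in both fates. The Grm3 window shown above holds 1 match to GGCGCC.

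Grm4, for the Gi-coupled receptor mGlu4, rose. Grm4 (chr17:27422387-27521403, - strand) was at 7.48, 7.27 and 6.77 in tdTomato, 7.90, 7.83 and 7.78 in EYFP and 8.14, 8.05 and 7.98 in hippocampal NSCs. It then stood at 9.60, 9.52 and 9.60 in tdTomato, 9.87, 9.83 and 9.89 in EYFP and 8.94, 9.02 and 9.01 in hippocampal astrocytes. Traced NSCs lay below hippocampal NSCs and traced astrocytes above hippocampal astrocytes, with changes of 2.40 ± 0.12 (tdTomato), 2.02 ± 0.12 (EYFP) and 0.93 ± 0.12 (hippocampal). The rise of Grm4 was larger in the traced lines by 1.28 ± 0.14 (adjusted p = 9.70e-07). Grm2, Grm7 and Grm8 were not tested, with values between -1.26 and -0.01.

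Of the NMDA receptor genes, Grin1, for the obligatory subunit, Grin2a and Grin2c fell in all lines, and Grin3a, the strongest of the family per length, rose in all lines. Grin2b was called in opposite directions, and Grin2d was called in the tdTomato line alone. Grin1 encodes GluN1, required in every NMDA receptor, and was at 6.04, 6.22 and 5.96 in tdTomato, 5.74, 5.43 and 5.65 in EYFP and 6.06, 5.97 and 6.04 in hippocampal NSCs. Grin1 in astrocytes was at 2.59, 3.18 and 2.59 in tdTomato, 3.20, 3.00 and 3.98 in EYFP and 4.85, 4.82 and 4.76 in hippocampal astrocytes. Astrocyte libraries were all below the NSC libraries, and hippocampal astrocytes were the highest among them. The changes of Grin1 (chr2:25291181-25319187, - strand) were -3.29 ± 0.21, -2.22 ± 0.21 and -1.21 ± 0.21 in the tdTomato, EYFP and hippocampal lines (adjusted p = 1.19e-10, 3.12e-08 and 5.27e-05). They differed between the traced and hippocampal lines by -1.54 ± 0.26 (adjusted p = 1.04e-04). Of the 6 traced astrocyte libraries 1 reached the filter level for Grin1, so the sizes of the traced changes rest on values below it. Its exons share 1307 bases with the antisense gene Grin1os, whose highest value was 1.27. The strand setting of the counting is not given in the sources used here, so reads of overlapping genes on opposite strands may not have been told apart.

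Grin3a encodes GluN3A, a glycine-binding subunit that lowers the calcium flow of NMDA receptors. Grin3a (chr4:49661611-49845744, - strand) was at 9.85, 9.97 and 10.16 in tdTomato, 9.72, 9.77 and 9.82 in EYFP and 10.62, 10.69 and 10.73 in hippocampal NSCs. Its astrocyte values were 12.48, 12.53 and 12.45 in tdTomato, 12.40, 12.59 and 12.43 in EYFP and 10.79, 10.99 and 10.93 in hippocampal astrocytes. Hippocampal NSCs exceeded every traced NSC library, while every traced astrocyte library exceeded every hippocampal one. Grin3a rose by 2.49 ± 0.07 (tdTomato), 2.70 ± 0.07 (EYFP) and 0.22 ± 0.07 (hippocampal), and the rise was larger in the traced lines by 2.37 ± 0.09 (adjusted p = 1.99e-12).

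Grin2a, for the glutamate-binding subunit GluN2A (chr16:9567898-9995560, - strand), was at 8.76, 8.74 and 8.47 in tdTomato, 8.36, 8.23 and 8.27 in EYFP and 8.28, 8.12 and 8.06 in hippocampal NSCs. The astrocyte libraries had Grin2a at 6.10, 6.37 and 5.55 in tdTomato, 6.30, 6.55 and 6.53 in EYFP and 7.26, 7.42 and 7.42 in hippocampal astrocytes. All astrocyte values were below all NSC values. Grin2a changed by -2.65 ± 0.15, -1.83 ± 0.15 and -0.78 ± 0.15, and fell more in the traced lines (difference in change -1.46 ± 0.18, adjusted p = 4.85e-06). Grin2c, for GluN2C (chr11:115249169-115267243, - strand), was at 2.76, 3.59 and 3.78 in tdTomato, 5.44, 5.78 and 5.42 in EYFP and 6.24, 6.42 and 6.03 in hippocampal NSCs. It was at 2.47, 2.22 and 2.23 in tdTomato, 1.83, 2.21 and 2.25 in EYFP and 2.75, 3.34 and 2.82 in hippocampal astrocytes. The low start of Grin2c in tdTomato NSCs set that line apart, with a change of -1.07 ± 0.24 against -3.45 ± 0.24 (EYFP) and -3.26 ± 0.24 (hippocampal). The changes of the 2 traced lines differed by 2.38 ± 0.35 (adjusted p = 2.82e-04). Grin2c reached the filter level in 9 of the 18 libraries, 8 of them NSCs, and in 0 traced astrocyte libraries, so the sizes of these changes rest on values below that level.

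Grin2b, for GluN2B (chr6:135713233-136173511, - strand), moved in opposite directions. Grin2b was at 2.66, 3.57 and 3.52 in tdTomato, 3.66, 4.51 and 3.85 in EYFP and 5.76, 5.62 and 5.29 in hippocampal NSCs. In astrocytes it was at 4.78, 4.92 and 5.12 in tdTomato, 4.05, 4.60 and 4.84 in EYFP and 4.20, 4.58 and 4.49 in hippocampal astrocytes. It rose by 1.69 ± 0.27 in the tdTomato line (adjusted p = 1.57e-05) and changed by -1.13 ± 0.27 in the hippocampal line (adjusted p = 9.24e-04), and was at a difference of 0.49 ± 0.27 in the EYFP line (adjusted p = 0.107). Traced and hippocampal changes of Grin2b differed by 2.23 ± 0.33 (adjusted p = 2.58e-05), with hippocampal NSCs above all other libraries and astrocytes of the 3 lines between 4.05 and 5.12. Grin2b reached the filter level in 17 libraries, and its tdTomato NSC mean of 3.25 was below that level. The sizes of differences that involve this group are therefore uncertain. Grin2d ranged from 3.19 to 4.27 over all libraries; its call in the tdTomato line (-0.49 ± 0.20, adjusted p = 0.0287) was lost without tdTomato NSC replicate 1 and without tdTomato astrocyte replicate 3, with values from -0.65 to -0.26 without 1 library. The exons of Grin2d share 643 bases with the opposite strand gene Gm45441, whose highest value was 4.14, close to that of Grin2d. Grin3b was not tested (1.07 to 2.38), and its exons share 1059 bases with the opposite strand gene Tmem259, whose highest value was 10.99.

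**Figure D3:**
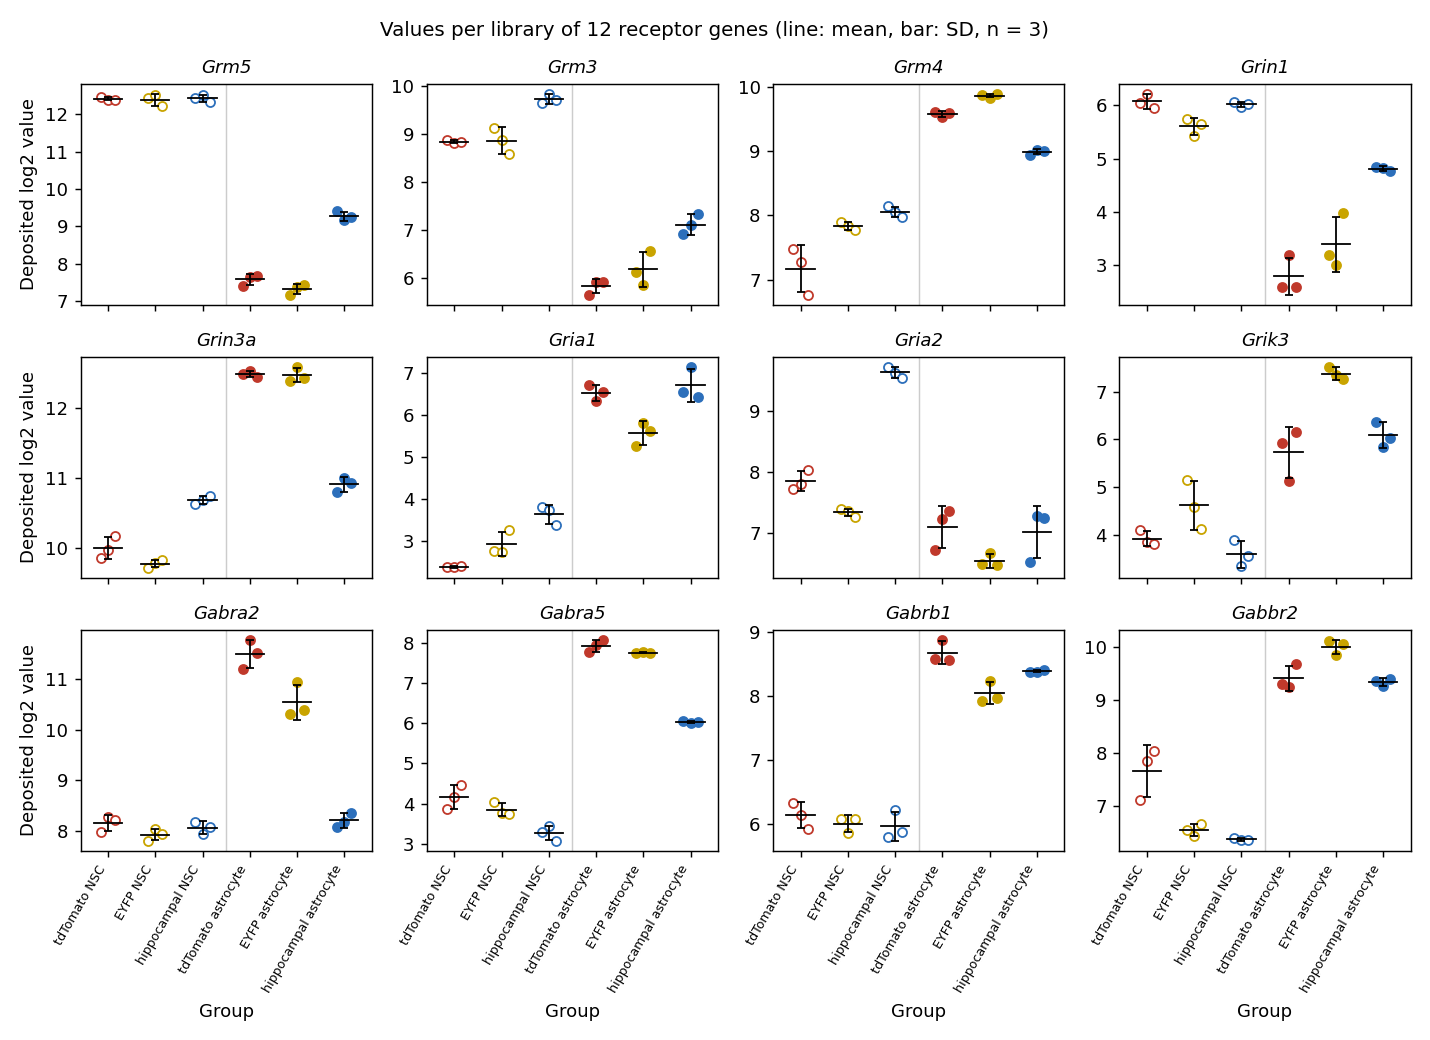
Deposited log2 value (y axis) of 12 receptor genes in each library, by group (x axis; open symbols NSCs, filled symbols astrocytes; red tdTomato, yellow EYFP, blue hippocampal), with the mean and SD of 3 libraries. Gabra2 and Grin3a separate traced from hippocampal astrocytes (11.50 and 10.54 against 8.20, and 12.49 and 12.47 against 10.91), and Gria2 separates hippocampal from traced NSCs (9.64 against 7.86 and 7.34).

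The AMPA receptor genes did not move together. Gria1 rose and Gria2 and Gria3 fell in all lines, and Gria4 moved with the line. Gria1, for the subunit GluA1 (chr11:57011387-57330244, + strand), was at 2.37, 2.37 and 2.39 in tdTomato, 2.76, 2.74 and 3.25 in EYFP and 3.80, 3.72 and 3.38 in hippocampal NSCs. After differentiation Gria1 was at 6.70, 6.32 and 6.55 in tdTomato, 5.26, 5.81 and 5.62 in EYFP and 6.55, 7.15 and 6.41 in hippocampal astrocytes. The astrocyte libraries were all higher, by 4.15 ± 0.21, 2.65 ± 0.21 and 3.07 ± 0.21 (adjusted p = 3.61e-12, 2.07e-09 and 2.34e-10). The rise was larger in the tdTomato than in the EYFP line by 1.50 ± 0.29 (adjusted p = 0.00283). Gria1 reached the filter level in 12 libraries and in 0 of the 6 traced NSC libraries, so the sizes of its traced changes, and of the difference between them, rest on values below that level.

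Gria2 encodes GluA2, the subunit that makes AMPA receptors impermeable to calcium. Gria2 (chr3:80681450-80802835, - strand) was at 7.73, 7.81 and 8.05 in tdTomato, 7.39, 7.36 and 7.28 in EYFP and 9.73, 9.63 and 9.55 in hippocampal NSCs. Its astrocyte values were 6.72, 7.23 and 7.36 in tdTomato, 6.49, 6.68 and 6.48 in EYFP and 6.53, 7.28 and 7.26 in hippocampal astrocytes. Hippocampal NSCs stood above all other libraries (traced minus hippocampal NSCs -2.04 ± 0.15, adjusted p = 7.23e-09), and hippocampal astrocytes overlapped with those of both traced lines. The changes of Gria2 were -0.76 ± 0.17, -0.79 ± 0.17 and -2.62 ± 0.17, and those of the traced and hippocampal lines differed by 1.84 ± 0.21 (adjusted p = 1.71e-06).

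Gria3, for GluA3, lies on the X chromosome (chrX:41400854-41678601, + strand). It was at 11.59, 11.75 and 11.70 in tdTomato, 10.89, 10.87 and 10.77 in EYFP and 11.32, 11.23 and 11.19 in hippocampal NSCs. In astrocytes Gria3 was at 10.36, 10.68 and 10.54 in tdTomato, 9.33, 9.53 and 9.20 in EYFP and 10.66, 10.36 and 10.40 in hippocampal astrocytes. Gria3 changed by -1.15 ± 0.09, -1.49 ± 0.09 and -0.77 ± 0.09 and was higher in the tdTomato than in the EYFP line in both fates, by 0.84 ± 0.09 in NSCs and 1.18 ± 0.09 in astrocytes (adjusted p = 2.39e-06 and 6.10e-08). Xist, the RNA of the inactive X chromosome, was at 13.15 ± 0.07 in tdTomato NSCs and 14.61 ± 0.52 in tdTomato astrocytes (SD, n = 3), and at 5.13 to 5.42 on average in the other groups; its part in the Gria3 values was not tested.

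Gria4, for GluA4 (chr9:4417896-4796234, - strand), was at 11.36, 11.34 and 11.26 in tdTomato, 11.12, 11.11 and 10.96 in EYFP and 11.65, 11.67 and 11.49 in hippocampal NSCs. It stood at 11.73, 12.00 and 11.91 in tdTomato, 10.86, 11.07 and 10.92 in EYFP and 10.78, 10.92 and 10.94 in hippocampal astrocytes. The fates did not overlap in the tdTomato and hippocampal lines and overlapped in the EYFP line. Gria4 rose by 0.56 ± 0.07 in the tdTomato line, differed by -0.12 ± 0.07 in the EYFP line (adjusted p = 0.157) and was changed by -0.72 ± 0.07 in the hippocampal line. The difference in change between traced and hippocampal lines was 0.94 ± 0.09 (adjusted p = 1.73e-07).

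Among the kainate receptor genes Grik2, Grik3, Grik4 and Grik5 rose in all 3 lines and Grik1 fell. Grik2 encodes GluK2 and lies at chr10:49094833-49788766 (- strand). It was at 10.13, 10.18 and 10.19 in tdTomato, 10.34, 10.44 and 10.41 in EYFP and 10.19, 10.19 and 10.31 in hippocampal NSCs. Its astrocyte values were 11.21, 11.42 and 11.39 in tdTomato, 11.20, 11.42 and 11.17 in EYFP and 11.14, 11.04 and 11.22 in hippocampal astrocytes. The 3 lines lay between 10.13 and 10.44 as NSCs and between 11.04 and 11.42 as astrocytes, with changes of 1.17 ± 0.07, 0.87 ± 0.07 and 0.90 ± 0.07.

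Grik3, for GluK3 (chr4:125490700-125714173, + strand), was at 4.09, 3.84 and 3.80 in tdTomato, 5.14, 4.59 and 4.12 in EYFP and 3.88, 3.33 and 3.55 in hippocampal NSCs. It rose to 5.92, 5.12 and 6.14 in tdTomato, 7.52, 7.34 and 7.26 in EYFP and 6.37, 5.83 and 6.03 in hippocampal astrocytes. EYFP astrocytes were the highest (tdTomato minus EYFP astrocytes -1.65 ± 0.26, adjusted p = 2.31e-04). The changes of Grik3 were 1.82 ± 0.26, 2.76 ± 0.26 and 2.49 ± 0.26. Grik4, for the high-affinity subunit GluK4 (chr9:42518135-42944493, - strand), was at 5.84, 5.60 and 5.18 in tdTomato, 5.47, 4.85 and 4.85 in EYFP and 4.91, 4.46 and 5.02 in hippocampal NSCs. In astrocytes Grik4 was at 7.12, 6.75 and 6.80 in tdTomato, 6.72, 6.44 and 6.57 in EYFP and 6.97, 7.25 and 7.34 in hippocampal astrocytes. Grik4 rose by 1.35 ± 0.20, 1.52 ± 0.20 and 2.39 ± 0.20, most in the hippocampal line (difference in change -0.95 ± 0.25, adjusted p = 0.00418).

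Grik5, for the high-affinity subunit GluK5 (chr7:25009849-25072346, - strand), was at 11.40, 11.41 and 11.37 in tdTomato, 11.57, 11.42 and 11.47 in EYFP and 11.47, 11.43 and 11.40 in hippocampal NSCs. It was at 11.66, 11.65 and 11.66 in tdTomato, 11.74, 11.68 and 11.81 in EYFP and 11.45, 11.65 and 11.58 in hippocampal astrocytes. Grik5 was thus high in every library, and its changes of 0.26 ± 0.05, 0.25 ± 0.05 and 0.13 ± 0.05 were called in all lines. In the hippocampal line (adjusted p = 0.0257) the call was lost without NSC replicate 2 or 3 or astrocyte replicate 2 or 3, with values from 0.08 to 0.18. Grik1, for GluK1 (chr16:87895900-88290265, - strand), was at 7.80, 7.76 and 7.79 in tdTomato, 6.78, 6.89 and 7.09 in EYFP and 6.52, 6.60 and 6.86 in hippocampal NSCs. The astrocyte values of Grik1 were 6.46, 6.53 and 6.11 in tdTomato, 6.00, 6.53 and 4.96 in EYFP and 5.11, 5.25 and 5.17 in hippocampal astrocytes. Grik1 changed by -1.41 ± 0.25, -1.09 ± 0.25 and -1.48 ± 0.25, and in the EYFP line, where 1 astrocyte library was far below the other 2, the change was -0.65 without astrocyte replicate 3 and remained called.

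Grid1 encodes a delta receptor that binds cerebellins. Grid1 (chr14:34820108-35583379, + strand) was at 9.56, 9.37 and 9.43 in tdTomato, 9.65, 9.68 and 9.38 in EYFP and 9.49, 9.68 and 9.55 in hippocampal NSCs. Its astrocyte values were 10.21, 10.14 and 10.20 in tdTomato, 9.96, 9.91 and 9.91 in EYFP and 9.69, 9.59 and 9.75 in hippocampal astrocytes. Hippocampal NSCs and astrocytes overlapped. Grid1 rose by 0.73 ± 0.07 and 0.35 ± 0.07 in the traced lines and differed by 0.10 ± 0.07 in the hippocampal line (adjusted p = 0.219).

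The GABA-A alpha subunit genes Gabra2, Gabra4 and Gabra5 rose in the traced lines, and Gabra4 and Gabra5 also in the hippocampal line. The alpha subunits form the GABA site together with beta subunits. Gabra2 (chr5:70957597-71095849, - strand) was at 7.98, 8.27 and 8.21 in tdTomato, 7.80, 8.03 and 7.92 in EYFP and 8.17, 7.92 and 8.07 in hippocampal NSCs. In astrocytes Gabra2 was at 11.21, 11.78 and 11.51 in tdTomato, 10.30, 10.94 and 10.38 in EYFP and 8.06, 8.18 and 8.36 in hippocampal astrocytes. The NSC libraries of the 3 lines overlapped and so did hippocampal NSCs and astrocytes, while all traced astrocytes were higher. Gabra2 rose by 3.35 ± 0.15 and 2.62 ± 0.15 in the traced lines (adjusted p = 8.21e-13 and 2.72e-11), and differed by 0.14 ± 0.15 in the hippocampal line (adjusted p = 0.391). The difference in change, 2.84 ± 0.18 (adjusted p = 1.94e-09), was the largest of the members for traced against hippocampal lines.

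Gabra5, known for extrasynaptic receptors of the hippocampus, lies at chr7:57407672-57510059 (- strand) and was at 3.87, 4.17 and 4.47 in tdTomato, 4.03, 3.76 and 3.74 in EYFP and 3.28, 3.44 and 3.08 in hippocampal NSCs. It was at 7.78, 7.94 and 8.08 in tdTomato, 7.74, 7.78 and 7.75 in EYFP and 6.06, 6.01 and 6.03 in hippocampal astrocytes. All astrocyte libraries were above all NSC libraries. Gabra5 rose by 3.76 ± 0.15, 3.91 ± 0.15 and 2.77 ± 0.15 (adjusted p = 1.39e-13, 8.56e-14 and 9.01e-12) and more in the traced lines (difference in change 1.07 ± 0.18, adjusted p = 1.20e-04). It reached the filter level in 16 libraries, and its hippocampal NSC mean of 3.27 was below that level. The sizes of its hippocampal rise and of the difference in change thus rest partly on values below it. Gabra4 (chr5:71569749-71658308, - strand) was at 8.37, 8.13 and 7.99 in tdTomato, 7.66, 7.59 and 7.38 in EYFP and 7.71, 7.48 and 7.49 in hippocampal NSCs. In astrocytes Gabra4 was at 9.61, 9.98 and 9.69 in tdTomato, 8.72, 8.84 and 8.57 in EYFP and 9.01, 8.70 and 8.80 in hippocampal astrocytes. Every astrocyte library was above every NSC library. The rises of Gabra4 were 1.60 ± 0.12, 1.17 ± 0.12 and 1.27 ± 0.12, which did not differ detectably between traced and hippocampal lines (0.11 ± 0.15, adjusted p = 0.565).

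Gabrb1, for a beta subunit, is the neighbour of Gabra4 on the opposite strand (chr5:71658113-72149037), and their exons share 46 bases in GENCODE M21. The 2 windows shown above lie 288 bases apart. Gabrb1 was at 6.34, 6.15 and 5.93 in tdTomato, 6.09, 5.86 and 6.09 in EYFP and 5.81, 6.22 and 5.88 in hippocampal NSCs. It was at 8.58, 8.88 and 8.56 in tdTomato, 7.92, 8.24 and 7.97 in EYFP and 8.38, 8.38 and 8.41 in hippocampal astrocytes. The fates did not overlap. Both genes of the pair rose in every line, Gabrb1 by 2.54 ± 0.13, 2.03 ± 0.13 and 2.42 ± 0.13 (adjusted p = 4.90e-12, 1.20e-10 and 8.74e-12), and the Gabrb1 changes of traced and hippocampal lines differed by -0.14 ± 0.16 (adjusted p = 0.511).

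Gabrb2 (chr11:42419757-42629028, + strand) was weak, at 3.63, 4.18 and 4.41 in tdTomato, 2.20, 2.52 and 2.58 in EYFP and 3.02, 2.05 and 2.25 in hippocampal NSCs. It was at 5.09, 5.09 and 5.11 in tdTomato, 3.55, 3.76 and 2.86 in EYFP and 2.59, 2.39 and 2.31 in hippocampal astrocytes. The tdTomato line was higher than the EYFP line in both fates, by 1.64 ± 0.27 and 1.71 ± 0.27, and Gabrb2 rose by 1.02 ± 0.27 and 0.96 ± 0.27 in the traced lines and differed by -0.01 ± 0.27 in the hippocampal line (adjusted p = 0.975). The rise in the EYFP line was not called after quantile normalization. Gabrb2 reached the filter level in 8 libraries, 6 of them of the tdTomato line, and in 0 hippocampal and 0 EYFP NSC libraries, so the sizes of its differences from those groups rest on values below that level.

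Of the gamma subunits, which are needed for benzodiazepine-sensitive receptors, Gabrg1 fell in all 3 lines and Gabrg3 in the EYFP and hippocampal lines. Gabrg1 (chr5:70751047-70842617, - strand) was at 11.18, 10.93 and 10.91 in tdTomato, 11.24, 11.29 and 11.11 in EYFP and 11.33, 11.37 and 11.30 in hippocampal NSCs. In astrocytes Gabrg1 was at 10.67, 10.85 and 10.77 in tdTomato, 10.58, 10.83 and 10.64 in EYFP and 10.09, 10.02 and 10.14 in hippocampal astrocytes. The fall was -0.24 ± 0.07, -0.53 ± 0.07 and -1.25 ± 0.07 and was larger in the hippocampal line (difference in change 0.86 ± 0.09, adjusted p = 5.99e-07). In the tdTomato line (adjusted p = 0.00755) it was -0.15 and not called without NSC replicate 1, and not called after median centring. Gabrg3 (chr7:56716465-57387188, - strand) was at 6.23, 5.91 and 6.09 in tdTomato, 5.11, 5.41 and 4.67 in EYFP and 5.54, 5.69 and 5.24 in hippocampal NSCs. It was at 5.39, 6.10 and 5.71 in tdTomato, 4.62, 4.36 and 4.48 in EYFP and 3.26, 3.43 and 3.80 in hippocampal astrocytes. Gabrg3 changed by -0.34 ± 0.21 in the tdTomato line (adjusted p = 0.15), by -0.58 ± 0.21 in the EYFP line and by -2.00 ± 0.21 in the hippocampal line (difference in change 1.54 ± 0.26, adjusted p = 9.55e-05). The EYFP call (adjusted p = 0.0199) was lost without NSC replicate 1 or 2 or astrocyte replicate 2, with values from -0.77 to -0.40.

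Further GABA-A genes were not tested. Gabrd, Gabrq, Gabrr1 and Gabrr3 had values between -1.85 and -0.07 in all libraries. Gabra3, Gabre and Gabrr2 reached 2.23, 1.41 and 2.86 at most.

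Of the GABA-B receptor pair, Gabbr2, whose protein couples to the G protein, rose strongly and Gabbr1, whose protein binds GABA, little. Gabbr2 (chr4:46662305-46991873, - strand) was at 7.11, 7.86 and 8.04 in tdTomato, 6.54, 6.44 and 6.66 in EYFP and 6.39, 6.36 and 6.35 in hippocampal NSCs. It was at 9.31, 9.25 and 9.68 in tdTomato, 10.11, 9.85 and 10.06 in EYFP and 9.37, 9.26 and 9.41 in hippocampal astrocytes. EYFP astrocytes were above the other astrocytes, and tdTomato NSCs above the other NSCs. Gabbr2 rose by 1.75 ± 0.17, 3.47 ± 0.17 and 2.98 ± 0.17 (adjusted p = 2.83e-08, 2.36e-12 and 1.66e-11), less in the tdTomato than in the EYFP line (-1.72 ± 0.24, adjusted p = 2.04e-04). Gabbr1 (chr17:37045966-37075067, + strand) was at 10.39, 10.17 and 10.11 in tdTomato, 10.57, 10.51 and 10.47 in EYFP and 10.23, 10.15 and 10.25 in hippocampal NSCs. Its astrocyte values were 10.28, 10.51 and 10.49 in tdTomato, 10.76, 10.77 and 10.82 in EYFP and 10.75, 10.89 and 10.82 in hippocampal astrocytes. Gabbr1 rose by 0.20 ± 0.07, 0.27 ± 0.07 and 0.61 ± 0.07, with the NSC and astrocyte libraries of the tdTomato line overlapping. That call (adjusted p = 0.0127) was lost without NSC replicate 2 or 3 or astrocyte replicate 2 or 3, with values from 0.14 to 0.29, and when the tdTomato groups were fitted alone.

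Levels were compared between genes after division by the length of the merged exons in GENCODE M21, as log2 values per kilobase. In NSCs Grm5 and Grik5 led, at 9.05 ± 0.04 and 9.02 ± 0.02 (SD, n = 3) in the tdTomato line, 9.03 ± 0.16 and 9.12 ± 0.08 in the EYFP line, and 9.06 ± 0.10 and 9.06 ± 0.04 in the hippocampal line. These 2 genes did not differ beyond their spread, and Gria4 followed at 8.66 ± 0.05, 8.41 ± 0.09 and 8.95 ± 0.10. In the hippocampal line Gria4 was not separated from Grm5 by more than their spread. In astrocytes Grik5 led at 9.28 ± 0.01, 9.37 ± 0.06 and 9.19 ± 0.10. Behind Grik5, Gria4 (9.22 ± 0.14) and Grin3a (8.87 ± 0.04) followed in the tdTomato line, Grin3a (8.86 ± 0.11) and Gria4 (8.29 ± 0.11) in the EYFP line, and Gria4 (8.22 ± 0.09) and Gabbr1 (7.86 ± 0.07) in the hippocampal line. In tdTomato astrocytes Grik5 and Gria4 did not differ beyond their spread, and the other neighbours named lay further apart than their SDs.

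The make-up of the families was described as each gene's share of the summed linear values per length of the family members described, with SD over 3 libraries. Among the metabotropic receptors Grm5 held 75.2% ± 0.50, 73.2% ± 2.08 and 62.4% ± 1.05 in tdTomato, EYFP and hippocampal NSCs, and 11.3% ± 1.09, 8.01% ± 0.69 and 31.6% ± 3.14 in the astrocytes. Grm4 went from 3.47% ± 0.74, 5.36% ± 0.46 and 5.19% ± 0.38 to 77.2% ± 2.15, 79.5% ± 2.49 and 44.4% ± 1.50. Among those described Grm4 was thus the leading metabotropic gene in the astrocytes of every line, with a smaller share in the hippocampal line. Within the NMDA family Grin3a held 69.7% ± 3.49, 66.5% ± 1.34 and 75.5% ± 1.98 in NSCs and 98.0% ± 0.32, 97.5% ± 0.22 and 89.6% ± 0.14 in astrocytes, while Grin1 held 5.86% ± 0.70 at most. Gria2 held 1.15% to 6.47% of the AMPA sum in every group, and Gria3 and Gria4 together nearly all of the rest.

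Among the alpha subunits of the GABA-A receptor, Gabra2 held 62.6% ± 2.19 and 57.7% ± 4.87 in the traced astrocytes and 28.4% ± 3.36 in the hippocampal astrocytes, where Gabra4 held 55.1% ± 3.66. Gabrg1 held 97.9% to 99.3% of the sum of Gabrg1 and Gabrg3 over the groups. Gabbr2 went from 17.1% ± 5.74, 6.91% ± 0.65 and 7.49% ± 0.27 of the GABA-B pair in NSCs to 36.6% ± 3.63, 40.5% ± 2.22 and 29.5% ± 1.87 in astrocytes. If the transform draws weak genes together, the shares of weak members are affected, which was not tested.

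**Figure D4:**
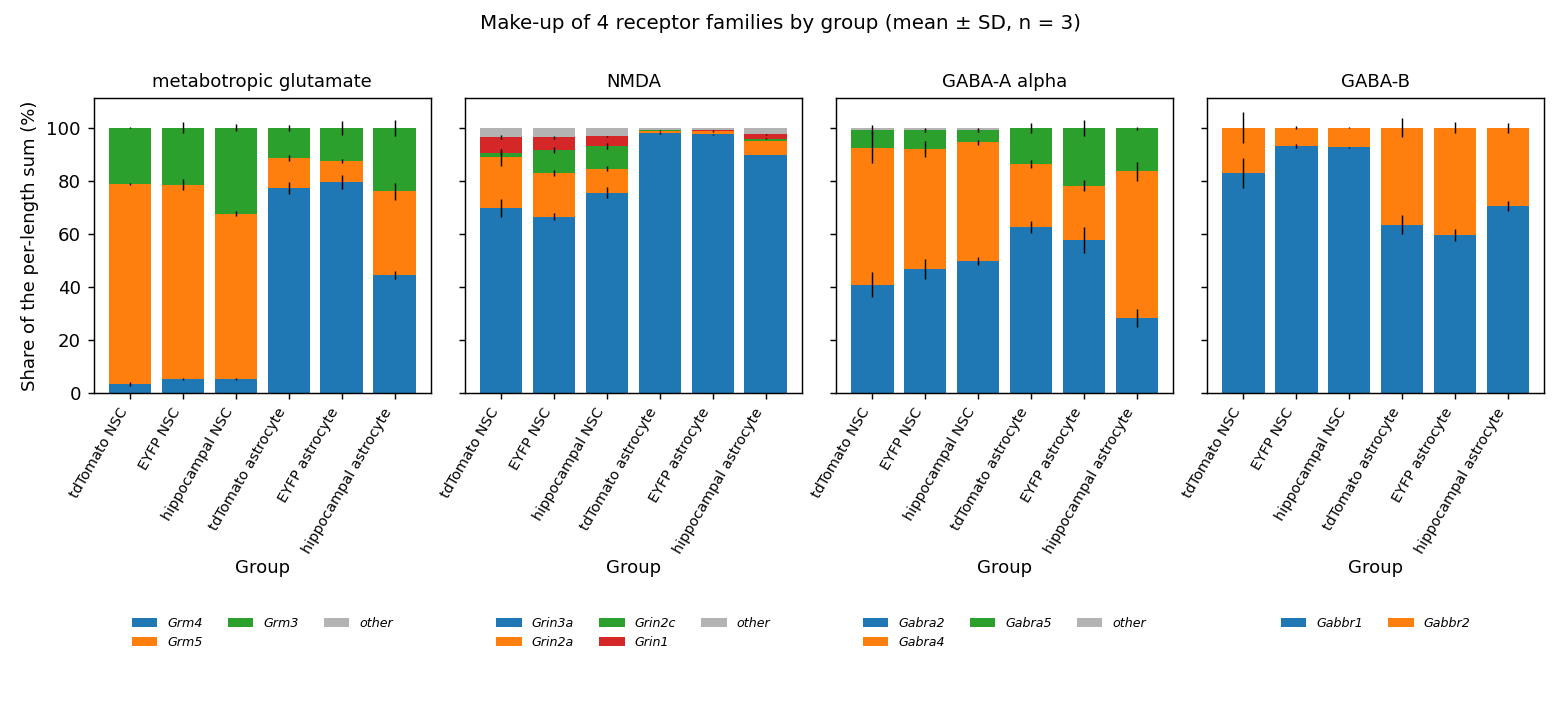
Share of each gene in the summed linear values per length (y axis, %) of the metabotropic glutamate, NMDA, GABA-A alpha and GABA-B families in the 6 groups (x axis), with SD over 3 libraries. In the metabotropic panel Grm5 (orange) gives way to Grm4 (blue), and in the alpha panel Gabra2 (blue) leads in traced but not in hippocampal astrocytes.

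Traced and hippocampal lines were also compared within each fate. In NSCs 17 of the 28 tested members were called, 8 higher and 9 lower in the traced lines. Of all genes tested 31.9% were called, 2626 higher and 2306 lower. The members called at 1 or more, a size for which all genes were not counted, were Gria2, Grin2b and Grin2c. They were lower in the traced lines (traced minus hippocampal -2.04 ± 0.15, -1.93 ± 0.23 and -1.77 ± 0.21). The traced value is the mean of 2 lines, which were unlike for Grin2c, with NSC means of 3.38 (tdTomato), 5.55 (EYFP) and 6.23 (hippocampal). In astrocytes 23 members were called, 14 higher and 9 lower, beside 59.7% of all genes, 4306 higher and 4924 lower. The members called include Gabra2 (2.82 ± 0.13) and Grm5 (-1.82 ± 0.08). Median centring turned the splits of all genes, to 2173 higher and 2821 lower in NSCs and 5034 and 4273 in astrocytes. The number called was higher in astrocytes for members and for all genes, and whether the members differ from all genes in this was not tested. Without hippocampal NSC replicate 2 the NSC comparison called 10 members.

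The changes themselves differed between the traced and the hippocampal lines for 18 members, where 46.2% of all genes tested were called. For the mean of the 2 traced lines, 12 of the member changes were more positive and 6 more negative. Among all genes 3131 were more positive and 4002 more negative, and 4054 and 3161 after median centring. Grin2c is among the 12 through the tdTomato line, since its change in the EYFP line (-3.45 ± 0.24) was not more positive than in the hippocampal line (-3.26 ± 0.24). Gabra2, Grin3a and Grin2b had the largest positive differences and Grm5, Grin1 and Grin2a the largest negative ones. Among the members not called were Grm3, Gabra4 and Gabrb1, with differences of -0.23 ± 0.19, 0.11 ± 0.15 and -0.14 ± 0.16, and a missed threshold does not show equal changes.

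The 2 traced lines also differed from each other. Between tdTomato and EYFP NSCs 16 members were called, 9 higher and 7 lower in tdTomato, and 10 were called without EYFP NSC replicate 2. Of all genes 31.4% were called there, 2535 higher and 2309 lower. Between tdTomato and EYFP astrocytes 13 members were called, 10 higher and 3 lower, beside 14.4% of all genes, 1091 higher and 1130 lower. Median centring turned the splits of all genes, to 2228 and 2608 in NSCs and 1148 and 1080 in astrocytes. All genes were not counted at a size of at least 1. The member differences of that size were those of Gabbr2 (1.12 ± 0.17), Gabrb2 (1.64 ± 0.27), Gabrg3 (1.01 ± 0.21) and Grin2c (-2.17 ± 0.24) in NSCs. In astrocytes they were those of Gabra4 (1.05 ± 0.12), Gabrb2 (1.71 ± 0.27), Gabrg3 (1.25 ± 0.21), Gria3 (1.18 ± 0.09) and Grik3 (-1.65 ± 0.26). Of all genes 13.3% differed in change between the 2 traced lines, 982 higher and 1078 lower (1132 and 910 after median centring). The changes differed for 10 members, 7 more positive and 3 more negative in the tdTomato line. That count was 6 when only the groups compared were fitted, 6 without tdTomato astrocyte replicate 3 and 5 without EYFP NSC replicate 2.

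Genes that work with these receptors were described from a list of 90 symbols, of which 86 were in the table and 75 were tested. In the tdTomato, EYFP and hippocampal lines 30, 27 and 30 of them rose and 31, 32 and 28 fell, where 78.4%, 75.2% and 76.3% of all genes tested were called. Of the genes for assembly and clustering of GABA-A receptors, 8, 8 and 7 of 11 rose and 3, 2 and 1 fell, beside 39.9%, 38.2% and 39% of all genes higher and 38.5%, 37% and 37.3% lower. Whether this split differs from that of all genes was not tested. They include Gabarapl1, a relative of the GABA-A receptor associated protein, which rose by 1.09, 1.35 and 1.82, and Dbi, whose peptide binds the benzodiazepine site, which rose by 1.37, 1.21 and 1.54. Both auxiliary subunits of kainate receptors fell in the traced lines, and Neto1 changed by -2.55, -2.27 and -2.95. Among scaffolds Dlg2, Dlgap1 and Shank1 rose by 1.13 to 1.89, 1.46 to 1.65 and 1.03 to 1.65 over the lines, and Dlgap3 changed by -3.20 to -2.13. Cbln1, a secreted synaptic organiser, changed by -3.06 to -2.19.

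Of the 7 tested plasma membrane transporters of glutamate and GABA, 2, 2 and 3 rose, 3, 3 and 3 fell and 2, 2 and 1 were not called in the tdTomato, EYFP and hippocampal lines, beside the same shares of all genes. Slc1a2, for the astrocytic glutamate transporter GLT-1, rose by 3.43 ± 0.12, 2.42 ± 0.12 and 0.99 ± 0.12, and Slc1a3, for GLAST, by 0.60, 0.23 and 0.32. Slc6a11, for the GABA transporter GAT-3, changed by -1.75, -2.60 and -2.64, Slc6a9, for the glycine transporter GlyT1, by -1.74, -2.79 and -1.48, and Slc1a6 by -1.81, -1.54 and -1.77. Aldh1a1, an enzyme of a GABA synthesis pathway, rose by 2.76, 2.77 and 2.02. Gls2, a glutaminase, changed by -1.70, -1.24 and -1.60. Glul, for glutamine synthetase, stayed between 13.13 and 13.38 on average in all groups. Gad1, for the GABA-synthesising enzyme, was at 7.30 and 8.01 in hippocampal NSCs and astrocytes and at 4.51 to 5.88 on average in the traced groups, and Gad2 was not tested. Rest, the repressor of neuronal genes, differed by -0.03, -0.05 and 0.00 between the fates (adjusted p = 0.659, 0.370 and 0.981).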

How the data were processed

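RNA-seq was done on 18 libraries, 3 lines as NSCs and as astrocytes with 3 replicates each. Per the labels, the libraries were TruSeq Stranded mRNA, whereas the paper's methods name another poly(A) kit. STAR alignment and RSEM estimation on GRCm38 (Ensembl release 89) were run by the authors, who normalized the result with DESeq2 (1.18.1). The deposited values are log2 values for 27997 genes, 29.4% of them below 0. They have the form of a regularized log, but the transform is not named in the sources used here. No counts are held, so the exact depth of each library is unknown, no counting error is given and no pseudocount was added. 

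Groups were taken from the sample labels. Differences were tested with limma (3.58.1, R 4.3.3) with a variance trend, as 9 contrasts of 6 group means over all 18 libraries (12 residual degrees of freedom), with Benjamini-Hochberg adjustment over the 15448 genes tested. The filter was 3.32 on the log2 scale, to be reached in 3 or more libraries. For traced lines the mean of the 2 line means was used. The fit was tested on simulated data. Members with a group mean of at least 6.64, or with a called difference of at least 1 in any contrast, are given per library, and the others by range. Of the partner genes, those called at 1 or more in the same direction in all 3 lines are named, with Slc1a2, Slc1a3, Glul, Gad1, Gad2 and Rest. The rule matched 43 genes of the table, 4 of which are not reported here and enter no count of members. The members, lists and motifs were chosen with earlier results of these data known. Lengths, positions and overlaps are from GENCODE M21 on GRCm38, and promoter windows from RefSeq (GRCm38.p6). Alternatives were fits of only the groups compared, no filter, a filter of 100, median centring, quantile normalization, a pseudocount of 10 on the linear values, no trend, a block for the replicate number, and leaving out single libraries.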

Additional observations from a re-analysis of the deposited data

Results flagged for a closer look

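The members below changed by different amounts in different lines, by the test of the difference in change itself in the limma fit (adjusted p under 0.05 over all genes tested).

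For the traced against the hippocampal line, the change from NSC to astrocyte, averaged over the 2 traced lines, was more positive than in the hippocampal line by 2.84 for Gabra2, 2.37 for Grin3a, 2.23 for Grin2b, 1.84 for Gria2, 1.54 for Gabrg3, 1.28 for Grm4, 1.07 for Gabra5, 1.00 for Gabrb2, 1.00 for Grin2c, 0.94 for Gria4, 0.86 for Gabrg1 and 0.44 for Grid1. The value of Grin2c comes from the tdTomato line, as its change was -1.07 there against -3.45 (EYFP) and -3.26 (hippocampal). The averaged change was more negative in the traced lines for the following genes, with differences of -0.37 for Gabbr1, -0.55 for Gria3, -0.95 for Grik4, -1.46 for Grin2a, -1.54 for Grin1 and -1.80 for Grm5. Of all genes tested, 46.2% were called in this contrast. The difference for Gabrb2 was not called without hippocampal NSC replicate 1, and over the libraries left out it ranged from 0.71 to 1.19.

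For the tdTomato against the EYFP line, the change was more positive in the tdTomato line by 2.38 for Grin2c, 1.50 for Gria1, 1.20 for Grin2b, 0.73 for Gabra2, 0.68 for Gria4, 0.37 for Grid1 and 0.30 for Grik2, and the differences were -0.82 for Grin2a, -1.07 for Grin1 and -1.72 for Gabbr2 where it was more negative. The background was 13.3% of all genes. The calls of Gabra2, Grin1, Grin2b, Grid1 and Grik2 in this contrast were each lost when 1 of several libraries was left out, with differences from 0.59 to 0.93, -1.27 to -0.78, 0.91 to 1.38, 0.32 to 0.47 and 0.25 to 0.38. Group means of Grin2c, Gria1, Grin1, Gabrb2, Grin2b and Gabra5 were below the filter level in at least 1 of the groups compared in these contrasts. The sizes of their differences are therefore uncertain. Single libraries were not tested as outliers.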

How the results depend on the processing

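Of 252 member differences tested, 173 were called. Of these, 138 kept their call in every alternative that tested them, 35 lost it in at least 1, and 21 of these 35 in an alternative other than leaving out a library. None of the 252 reversed its direction after being called (0 reversals). The number of members called for the difference in change between the tdTomato and EYFP lines was 10, and 6 when only the groups compared were fitted, 6 with no filter and 6 with a filter of 100, which leaves fewer members tested. Leaving out 1 library gave 5 to 12 for that number, with 5 without EYFP NSC replicate 2 and 6 without tdTomato astrocyte replicate 3. For traced against hippocampal NSCs leaving out 1 library gave 10 to 17, with 10 without hippocampal NSC replicate 2, and for tdTomato against EYFP NSCs 10 to 15, with 10 without EYFP NSC replicate 2. The counts of the other comparisons stayed within 1.5 times of those reported.

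Replicate numbers are shared by the groups. Same-numbered libraries had a mean correlation of deviations from the group means of 0.04 over 45 pairs (-0.08 to 0.31), of which 9 exceeded 0.1. However, 15 of 18 libraries correlated best with a library of their own number. The paper's methods take the replicates of each fate from successive passages, so libraries of 1 number may share a passage. The main fit did not treat them as paired, and a fit with a block for the number was run beside it. With the replicate block the numbers called were 27, 25, 24, 16, 24, 16, 14, 18 and 11, against 27, 25, 24, 17, 23, 16, 13, 18 and 10 without it, in the order of the 3 lines, traced against hippocampal NSCs and astrocytes, tdTomato against EYFP NSCs and astrocytes, and the 2 differences in change. The block lost 1 call, that of Gabbr1 in traced against hippocampal NSCs, and gained 3.

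The limits are the unknown exact depth of each library, the unnamed transform and lines that are each represented by passages of 1 culture. The effect of the transform on the weak genes Gria1, Grin1, Grin2b, Grin2c, Gabra5 and Gabrb2 was not tested. Median centring turned the split of all genes called for the difference in change between traced and hippocampal lines from 3131 higher and 4002 lower to 4054 and 3161, and in the tdTomato line moved the median change of all genes from 0.01 to 0.10 and the split from 6162 higher and 5952 lower to 6835 and 5310.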
